A study of Penicillium oxalicum with 15 samples.

Results

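RNA sequencing of Penicillium oxalicum mycelium was compared between solid-state cultures of strain EU2101 on the carbon source titled WB_RS, whose growth label is WR, and on WB alone. These were 6 of the 15 libraries of the series, 3 per carbon source, chosen by their titles. The other 9 libraries were 3 of the same strain on the carbon source titled WB_AV and 6 of the strains titled Ku70 and MuPOX03016, which were not analysed here. The WB_AV libraries entered the fit through the filter on low counts, the scaling and the estimate of the spread between libraries. They also entered the classes by mean level, and their levels are given beside some results. Every EU2101 culture was static, at 28 °C, and was sampled after 5 days. The medium was 10 g of milled carbon source moistened with 20 mL of salts. The labels do not spell out the abbreviations. In published work on solid-state cultures of this fungus, WB stands for wheat bran, RS for rice straw and AV for Avicel, a microcrystalline cellulose. The labels name no allele for EU2101 and do not say whether replicates came from separate cultures, so p-values measure only the spread between these libraries, which may be technical. Levels are relative within a library, so less RNA per cell and fewer cells that express a gene cannot be told apart.

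Penicillium oxalicum is a filamentous soil fungus that feeds on dead plant material by secreting enzymes. Wheat bran carries readily used starch and protein beside its cell walls, whereas cereal straw is mostly lignified cellulose and xylan. Fungi of this kind make cellobiohydrolases, which cut cellulose from chain ends, endoglucanases, which cut inside the chain, and xylanases and side-chain enzymes, which open the hemicellulose. Transcription of these genes is held down by easily used sugars and raised by soluble fragments of the polymers. In filamentous fungi, genes of one secondary-metabolite pathway often sit side by side on a chromosome and are expressed together.

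The files name genes by POX numbers only, and neither the files nor the reference table pairs them with a product, so identifiers are reported without a name or role. A panel of 13 identifiers is the exception in part. These were recalled from quantitative PCR work in the literature on secreted enzymes that break down plant cell walls in this fungus, and the function of single members was not checked here. Whether consecutive POX numbers lie next to each other on a chromosome is not given in the sources used here.

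The libraries held 2417284, 1782848 and 2265863 estimated reads on WB and 3414915, 3394496 and 3372763 on WB_RS. Every WB_RS library was thus deeper than every WB library. A WB library listed 8665 to 8869 genes and a WB_RS library 8932 to 8997. Thinned by formula to the depth of the smallest library, the numbers were 8665 to 8790 and 8763 to 8827. Of 9373 identifiers in the EU2101 files, 8079 passed the filter on low counts and were tested.

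WB replicate 1 stood apart from the other WB libraries. On log2 CPM, counts scaled by library size, over the 8079 genes, WB replicates 2 and 3 had a correlation of 0.968 and the WB_RS libraries of 0.969 to 0.983 with each other. WB replicate 1 had 0.885 and 0.889 with its own group and 0.906 to 0.914 with the WB_RS libraries. The labels record nothing that sets this library apart, and its part in the results was not tested beyond refitting without it. Values are therefore given by library, in the order of replicates 1, 2 and 3.

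At an adjusted p below 0.05 in edgeR's quasi-likelihood test, 1315 genes changed, which is 16.3% of those tested. Of these, 700 rose on WB_RS, with a median log2 fold change of 1.47, and 615 fell, with a median of -1.15. The median over all tested genes was -0.03. Abundant genes were called more often than rare ones. In the class with the lowest mean level 11.6% were called, in the next 3 classes 12.995%, 15.98% and 17.6%, and in the class with the highest level 23.2%. Without WB replicate 1 the test called 2962 genes, 36.3% of those tested, with 18.7% higher and 17.6% lower. With any one of the other 5 libraries left out it called between 548 and 606 genes. Those were 7.41% and 7.1% without WB replicates 2 and 3, and 6.76%, 7.13% and 7.46% without WB_RS replicates 1, 2 and 3. Apart from the test, all WB_RS libraries lay above all WB libraries in FPKM in 14.8% of the tested genes and below them in 19.7%.

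The share of the transcriptome that moved was measured on FPKM, a level corrected for gene length and library size. Each gene's FPKM was divided by the library's sum, and the amount moved is the sum of all gains, which equals the sum of all losses. Between the mean profiles of WB and WB_RS, 29.2% of the FPKM sum moved. Single pairs of libraries show what replicate error amounts to on this scale. WB replicates 2 and 3 differed by 10.8% from each other, and pairs of WB_RS libraries by 7.49% to 11.3%. From WB replicates 2 and 3 to WB_RS libraries the amount was 34.2% to 37.7%, more than 3 times the difference within either of those sets. WB replicate 1 differed from WB replicates 2 and 3 by 25.7% and 24.95%, and from the WB_RS libraries by 22.0% to 24.2%. Without WB replicate 1 the amount between the mean profiles was 35.0%.

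**Figure D1:**
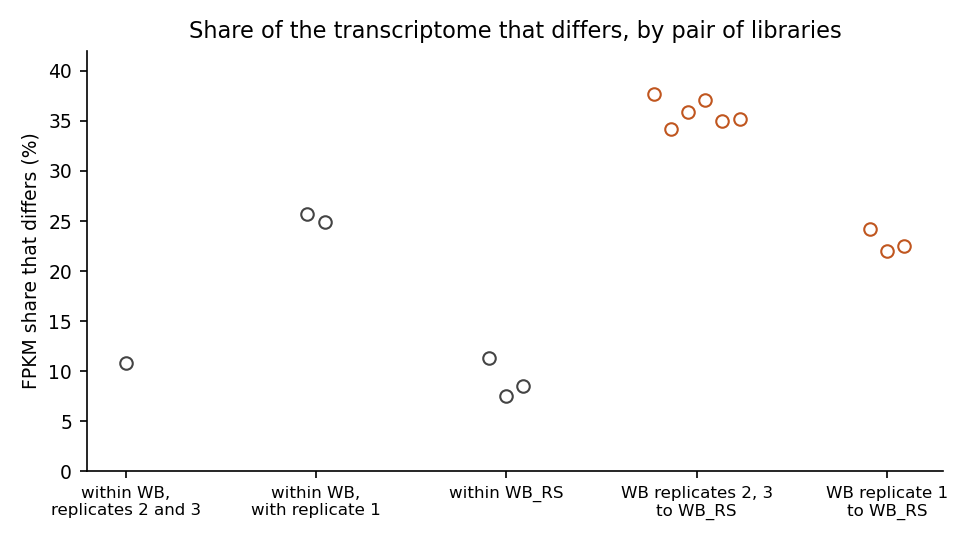
Share of the FPKM sum (%) that differs between 2 libraries, 1 circle per pair, grouped by whether both come from WB, both from WB_RS or 1 from each. Pairs of WB replicates 2 and 3 with WB_RS lie at 34.2% to 37.7%, and pairs with WB replicate 1 lie at 22.0% to 25.7% whichever substrate the partner came from.

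Gains and losses were spread over many genes. The share rose in 4188 genes and declined in 5121, and on each side the 163 genes with the largest differences made up 50% of the amount. The 5 largest gains came to 5.90 percentage points, 20.2% of all gains. The 5 largest losses came to 4.64 percentage points, 15.9% of all losses. Genes called higher accounted for 16.7 of the 29.2 points gained and genes called lower for 14.3 of the 29.2 points lost, as a description, since the calls come from the same values. Uncalled genes held the remaining 12.6 points gained and 14.9 points lost.

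The genes called higher took 9.90%, 5.603% and 5.48% of the FPKM sum in the WB libraries and 26.0%, 21.4% and 23.5% in the WB_RS libraries. The genes called lower took 16.2%, 23.8% and 24.2% on WB and 6.85%, 7.05% and 7.30% on WB_RS. In both sets WB replicate 1 was the WB library nearest to WB_RS. The WB_AV libraries, which are not part of this contrast, lay between, with 17.8%, 13.7% and 12.7% for the first set and 9.71%, 13.9% and 12.1% for the second. Both sets were picked on the difference between WB and WB_RS. That choice favours the split between these groups and a place between them for WB_AV, so the shares are a description.

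The 10 most abundant genes of each substrate were mostly different ones, while longer lists had more genes in common. Of the 10 genes with the highest mean FPKM on each substrate, 3 were on both lists, namely POX00089, POX01764 and POX03430. Of the 50 most abundant, 22 were shared, and of the 100 most abundant, 60. Among the 10 of WB, 6 fell on WB_RS and 0 rose, where 7.61% of all tested genes fell. Among the 10 of WB_RS, 7 rose and 0 fell, where 8.66% of all tested genes rose. Both lists were picked on the levels that were then compared, which favours these directions, so the counts are a description. The 10 most abundant genes of each library held 7.88%, 10.7% and 10.2% of the FPKM sum on WB and 12.4%, 10.2% and 11.2% on WB_RS, a difference of 1.65 percentage points (2-sided exact permutation test, p = 0.2, n = 3 per group, where 0.1 is the smallest p possible). Ranked by expected counts the groups did not overlap, with a difference of 1.99 points (2-sided exact permutation test, p = 0.1, n = 3 per group). The highest WB share was 8.29% and the lowest WB_RS share 8.31%. For the 50 most abundant by FPKM these shares were 21.72% and 21.73%, with a difference of 3.47 points (p = 0.1 in the same exact permutation test). The groups overlapped for the 50 by expected counts and for the 100 by FPKM and by expected counts (same exact permutation test, p = 0.3, 0.2 and 0.4). With 3 libraries per group this test cannot reach 0.05, so it does not settle whether the weight of the top differed.

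The leading gene of WB was POX05554, at 11785, 23203 and 17678 FPKM on WB and 4026, 5580 and 5760 on WB_RS. Its groups did not overlap, and it fell (edgeR log2 fold change -1.80 ± 0.45 SE, adjusted p = 0.0246). Next came POX06753, at 8286, 20254 and 15390 FPKM against 4325, 4005 and 3654. It fell by 1.90 on the log2 scale (edgeR, SE 0.52, adjusted p = 0.034), and its lowest WB value was that of replicate 1. The largest relative decline among these genes was that of POX02623, at 6836, 2497 and 3570 FPKM on WB and 72.2, 76.6 and 104.7 on WB_RS. It was at rank 8 on WB and rank 1955 on WB_RS (edgeR log2 fold change -5.59 ± 0.52 SE, adjusted p = 0.000335). Leaving out any single library kept that call, with adjusted p from 6.8e-05 to 0.00386 in edgeR.

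POX07896 showed 1315, 4984 and 5882 FPKM on WB and 478, 496 and 361 on WB_RS. It fell by 3.24 on the log2 scale (edgeR, SE 0.85, adjusted p = 0.0298), although WB replicate 1 lay nearer to WB_RS than to the other WB libraries. POX09204 went from 3108, 7738 and 6537 to 1242, 1091 and 1213 FPKM (edgeR log2 fold change -2.31 ± 0.50 SE, adjusted p = 0.0135). POX06884 fell the least of these 6, from 3372, 4297 and 3695 to 1624, 1898 and 1917 FPKM (edgeR log2 fold change -1.07 ± 0.30 SE, adjusted p = 0.0367). The calls of POX05554, POX06753, POX07896 and POX06884 were lost when any library other than WB replicate 1 was left out, with edgeR adjusted p between 0.0689 and 0.137. That of POX09204 was lost in some of those refits, with edgeR adjusted p from 0.0453 to 0.0598.

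On WB_RS the most abundant gene was POX01764, at 25933, 29594 and 24185 FPKM, which was 2.95% ± 0.31 of the FPKM sum (SD, n = 3). On WB it stood at 13805, 1932 and 1502 FPKM. The groups did not overlap, but WB replicate 1 was at more than 7 times the level of either other WB library, and the gene did not pass the test (edgeR log2 fold change 2.40 ± 0.77 SE, adjusted p = 0.0614). Without WB replicate 1 it passed, at a log2 fold change of 3.87 (edgeR adjusted p = 0.000825). POX01764 also made the largest gain in share, 2.33 percentage points.

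POX03430, second on WB_RS, had 15238, 12034 and 13487 FPKM there and 1767, 7196 and 5013 on WB. Its groups were apart, yet it did not pass the test (edgeR log2 fold change 1.49 ± 0.69 SE, adjusted p = 0.166), and here WB replicate 1 was the lowest WB library. The third gene on both lists, POX00089, had 7710, 14776 and 17709 FPKM on WB and 6290, 4285 and 6236 on WB_RS (edgeR log2 fold change -1.29 ± 0.42 SE, adjusted p = 0.0643). POX05578, among the 10 of WB, overlapped between the substrates, at 6979, 3953 and 3604 against 3967, 3025 and 4434 FPKM.

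POX06599 rose most among the 10 of WB_RS, from 433, 358 and 264 FPKM on WB to 6530, 4298 and 5307 (edgeR log2 fold change 3.97 ± 0.39 SE, adjusted p = 0.000402). It was at rank 432 on WB and rank 10 on WB_RS, and in WB_AV it reached 1819, 1160 and 787 FPKM. No single library carried its call, for edgeR's adjusted p stayed at or below 0.00389 with any one left out. POX08485 went from 2042, 532 and 321 to 6794, 4519 and 5547 FPKM (edgeR log2 fold change 2.67 ± 0.60 SE, adjusted p = 0.0163). Its call was lost in some refits that left out a library other than WB replicate 1, with edgeR adjusted p of up to 0.0696.

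**Figure D2:**
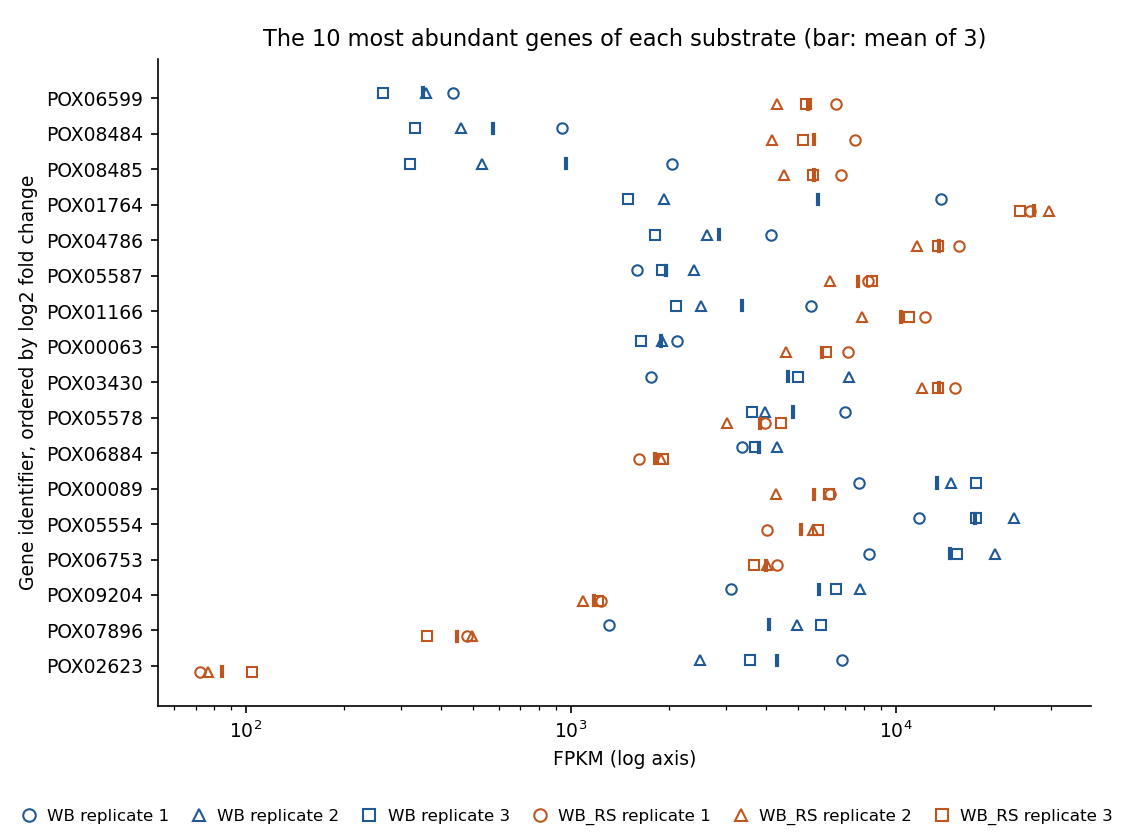
FPKM (log axis) of the 17 genes that are among the 10 most abundant on WB or on WB_RS, 1 symbol per library and a bar at each group's mean, ordered by log2 fold change from the highest rise at the top. POX06599 and POX02623, at the ends, have groups far apart, POX05578 has groups that overlap, and WB replicate 1 of POX01764 lies at 13805 FPKM beside 1932 and 1502.

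The remaining 5 genes among the 10 of WB_RS belong to the panel of cell-wall-degrading enzyme genes, none of whose members was among the 10 of WB. POX04786 stood at 4123, 2621 and 1817 FPKM on WB and at 15610, 11608 and 13504 on WB_RS (edgeR log2 fold change 2.30 ± 0.38 SE, adjusted p = 0.00478). POX01166 stood at 5487, 2513 and 2100 against 12351, 7895 and 10976 FPKM (edgeR log2 fold change 1.71 ± 0.40 SE, adjusted p = 0.0191). Its call was lost in some refits without a library other than WB replicate 1, with edgeR adjusted p of up to 0.0816. POX05587 stood at 1595, 2403 and 1910 against 8212, 6272 and 8453 FPKM (edgeR log2 fold change 1.94 ± 0.36 SE, adjusted p = 0.0079). In each of these genes every WB_RS library was above every WB library, as in 14.8% of all tested genes. Picking genes by their level on WB_RS favours this. POX00063 went from a narrow 2119, 1904 and 1649 FPKM to 7141, 4593 and 6109 (edgeR log2 fold change 1.68 ± 0.31 SE, adjusted p = 0.0072). POX08484 made the widest step of the 5, from 939, 458 and 332 FPKM to 7486, 4169 and 5171 (edgeR log2 fold change 3.37 ± 0.46 SE, adjusted p = 0.00204).

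All 13 panel members passed the filter, 11 rose and 0 fell, against 8.66% and 7.61% of all tested genes, and their median log2 fold change was 1.94 beside -0.03 over all. The panel was chosen with earlier results of these data known, so these counts are a description. Together its members gained 5.23 percentage points of the FPKM sum. The members that rose were already abundant on WB in part. POX05570 had 2419, 1378 and 1142 FPKM on WB and 4560, 3242 and 4570 on WB_RS, and the neighbouring number POX05571 had 2108, 1280 and 1227 against 4762, 2928 and 3809. Both rose (edgeR log2 fold changes 1.39 ± 0.31 and 1.37 ± 0.32 SE, adjusted p = 0.0157 and 0.0203), and both calls were lost in some refits with a library other than WB replicate 1 left out, with edgeR adjusted p of up to 0.0686 and 0.0871. The members that did not pass the test were POX02740, at 427, 1015 and 678 FPKM on WB and 331, 211 and 313 on WB_RS (edgeR adjusted p = 0.0856), and POX06835, at 133, 353 and 292 against 136, 179 and 160 (edgeR adjusted p = 0.248). In both, WB replicate 1 was the lowest WB library. Without it both passed with a lower level on WB_RS, at edgeR adjusted p of 0.0128 and 0.0153.

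**Figure D3:**
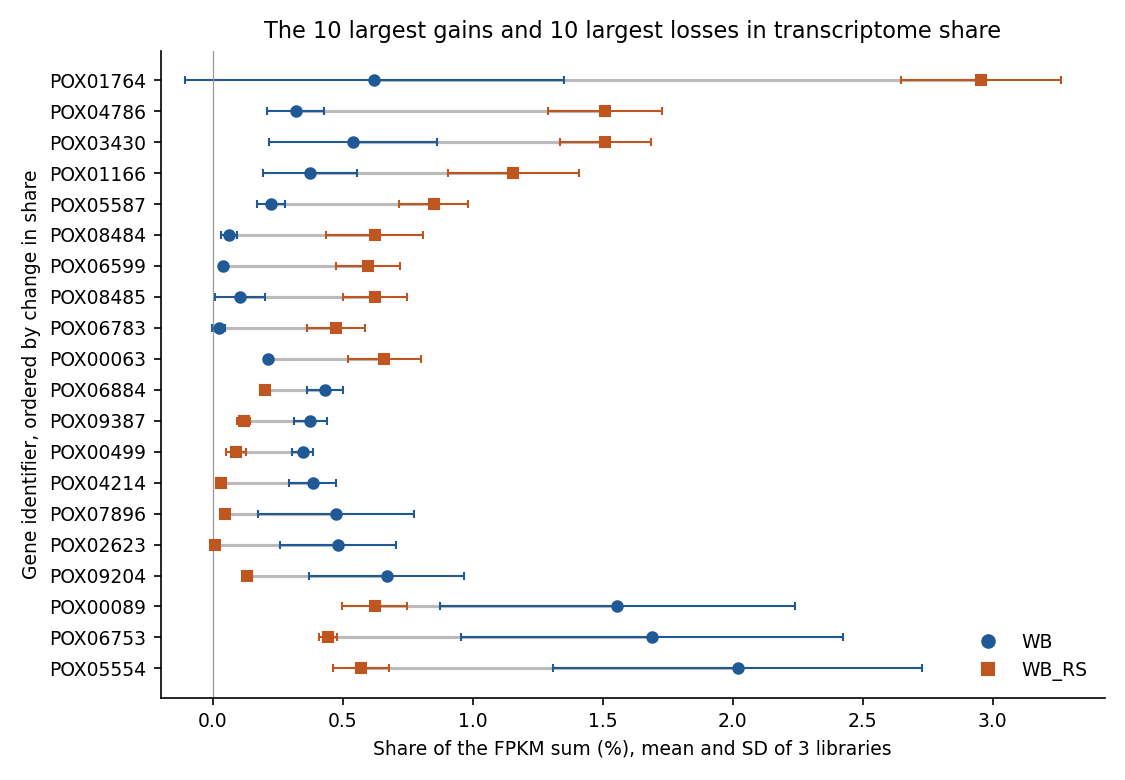
Share of the FPKM sum (%) of the 10 genes with the largest gain and the 10 with the largest loss, as mean and SD of 3 libraries per substrate, joined by a grey line. POX01764 gained 2.33 percentage points with a wide WB error bar, and POX05554 lost 1.45.

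Few genes were listed on one substrate and at 0 on the other. In all 3 WB_RS libraries and no WB library, 33 genes were listed, with a median of 6 estimated reads summed over the 3. Only 1 of them passed the filter, POX09299, listed at 0 on WB and at 21.8, 18.3 and 46.0 FPKM on WB_RS. Counting 3 reads per library as the limit that a count of 0 allows, it was at least 3.54-fold higher on WB_RS. It passed the test (edgeR adjusted p = 0.0079), but it was picked on the same values, which favours that call. With only the 6 libraries of WB and WB_RS it did not pass the filter and was not tested. In WB_AV, POX09299 had 119, 59.7 and 72.4 FPKM. The next gene by level, POX01998, had 4.54, 15.1 and 12.3 FPKM on WB_RS, which is at least 1.46-fold above that limit. In the other direction 2 genes were listed, POX08008 at 2.70, 3.54 and 5.58 FPKM and POX00451 at 1.25, 5.00 and 3.94 FPKM on WB, none with more than 3 estimated reads in a library. WB_RS libraries were deeper, and the part of depth in the length of the first list was not tested.

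Genes with neighbouring POX numbers moved in the same direction more often than tested genes at large. Of genes called higher whose next number was tested, 126 of 589, or 21.4%, had a next number called higher too, against 8.66% of all tested genes. For genes called lower it was 90 of 509, or 17.7%, against 7.61%. Opposite calls next to each other were rarer than in all tested genes, at 3.90% beside 7.61% for a lower gene after a higher one and at 4.52% beside 8.66% for the reverse. At larger distances the share was smaller than for the next number, without an even decline. At a distance of 2 it was 13.5% and 11.8%, at 5 it was 11.2% and 8.95%, and at 6 it was 9.42% and 11.5%. At 8 it was 9.20% and 7.24%, and at 10 it was 8.35% and 10.2%.

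**Figure D4:**
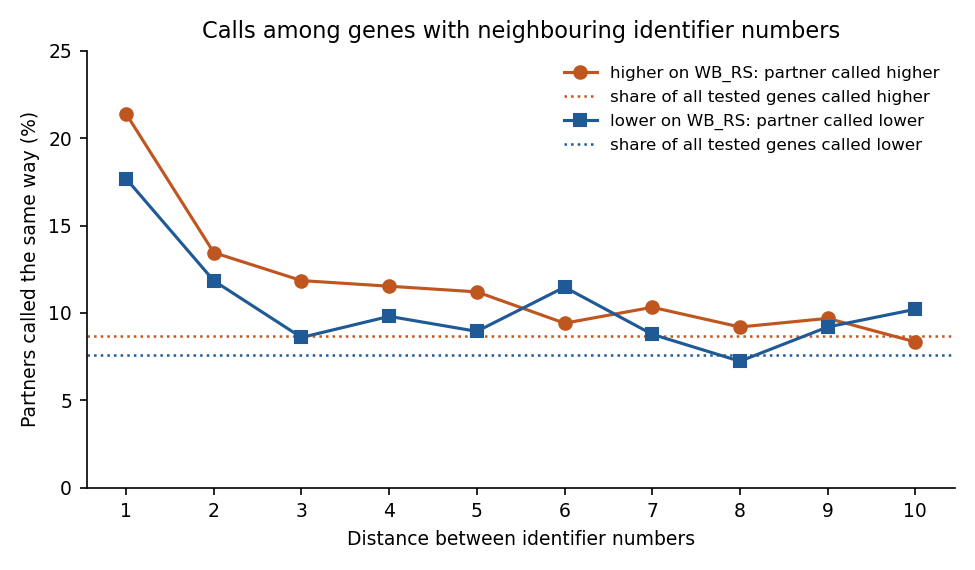
Share (%) of called genes whose partner at a distance of 1 to 10 identifier numbers was called in the same direction, with dotted lines at the share of all tested genes called in that direction. Both curves start well above their line, at 21.4% and 17.7%, and have dropped to 11.9% and 8.60% at a distance of 3. The curve of lower genes then varies, with 11.5% at a distance of 6 and 10.2% at 10.

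Defining a run as at least 3 consecutive numbers called in one direction, 24 runs with 82 genes rose on WB_RS, which is 11.7% of the genes called higher. Lower on WB_RS were 16 runs with 53 genes, 8.62% of the genes called lower. Most runs were short: 18 higher and 11 lower ones had 3 genes. The longest higher run had 7 genes and the longest lower run 4. Higher runs together gained 2.90 percentage points of the FPKM sum, and lower runs lost 3.15, in directions that follow from the calls. Single runs with abundant genes weighed heavily, with 1.09 points for POX08483 to POX08485 and -1.34 for POX06753 to POX06755. How many runs were found depended on the libraries. Without WB replicate 1 there were 75 higher and 67 lower runs, and without one of the other libraries 7 to 13 higher and 4 to 9 lower ones.

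The longest higher run, POX05865 to POX05871, had a mean log2 fold change of 2.36 over its 7 genes. Its most abundant gene, POX05866, had 250, 33.4 and 29.3 FPKM on WB and 1213, 1392 and 1180 on WB_RS (edgeR log2 fold change 3.75 ± 0.74 SE, adjusted p = 0.00959). POX05871, at the end of the run, was low and even within each substrate, at 9.38, 5.99 and 9.77 against 35.8, 41.6 and 32.6 FPKM (edgeR log2 fold change 2.14 ± 0.20 SE, adjusted p = 0.000339). The smallest step within the run was that of POX05869, from 98.2, 52.9 and 58.8 to 122, 128 and 116 FPKM. Every gene of the run had non-overlapping groups, as 14.8% of all tested genes had with WB_RS above WB. A run consists of called genes, which favours this, and it ends where a call fails. The number after it, POX05872, did not pass the test (edgeR adjusted p = 0.646). POX05872 had 6.65, 8.93 and 10.9 FPKM on WB and 6.14, 7.19 and 7.27 on WB_RS. All 7 calls of the run held without WB replicate 1. Without one of the other libraries only 3 or 4 held, and the longest higher run of those refits had 3 genes.

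The run is the end of a longer stretch, chosen after its values were seen, of 22 consecutive numbers from POX05850 to POX05871, all tested. The median FPKM over these 22 genes was 74.6, 9.12 and 9.70 on WB, 129, 143 and 134 on WB_RS and 75.5, 47.7 and 32.1 on WB_AV. The WB_RS libraries lay close together, while WB replicate 1 was about as high as the highest WB_AV library. In all, 15 of the 22 genes were called higher, where 8.66% of all tested genes were. The stretch was picked as the longest higher run without WB replicate 1, so that all 22 were called there follows from the choice, and 18.7% of all tested genes were called higher in that refit. The fit with all libraries shares most of its data with that refit. The choice therefore favours the count of 15 as well, which is given as a description. As a share of the FPKM sum the stretch took 0.0869% ± 0.0948 on WB and 0.489% ± 0.0335 on WB_RS (SD, n = 3).

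The second longest higher run was POX09467 to POX09471, with a mean log2 fold change of 2.81 over 5 genes. POX09467 stood at 5.37, 2.53 and 3.73 FPKM on WB and at 21.1, 25.5 and 27.2 on WB_RS (edgeR log2 fold change 2.70 ± 0.21 SE, adjusted p = 0.000243). POX09471 stood at 33.1, 6.12 and 5.67 against 150, 144 and 132 FPKM (edgeR log2 fold change 3.33 ± 0.60 SE, adjusted p = 0.00706). In the middle of the run POX09470 reached the highest level, 502, 520 and 467 FPKM against 255, 25.6 and 27.5 on WB, and it passed only just (edgeR adjusted p = 0.047). Of the 5 calls, 3 held in each refit without a library other than WB replicate 1, and 3 held with only the 6 libraries. With DESeq2 3 held as well, and POX09469 and POX09470 received no adjusted p there. In the surrounding stretch of 11 numbers from POX09464 to POX09474, chosen after its values were seen, WB replicate 1 was the highest WB library in every tested gene, 10 in all, and POX09466 was listed at 0 in every WB library. Over that stretch the median FPKM was 37.1, 6.12 and 5.67 on WB and 133, 131 and 132 on WB_RS.

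The other higher runs named by length, each of 4 genes, were POX09674 to POX09677, POX04559 to POX04562 and POX07373 to POX07376, with mean log2 fold changes of 2.48, 2.34 and 2.103. Their levels were modest, with group means on WB_RS between 14.8 and 84.4 FPKM. POX04560 is an example, at 13.98, 1.61 and 4.11 FPKM on WB and 47.6, 55.5 and 57.7 on WB_RS (edgeR log2 fold change 3.06 ± 0.49 SE, adjusted p = 0.004). In POX09674 to POX09677 no gene stayed called in the refits without WB replicate 2, WB replicate 3 or WB_RS replicate 1. The run from POX04559 to POX04562 was followed, after the uncalled POX04563, by a run in the opposite direction, POX04564 to POX04566, chosen after its values were seen. POX04564 went from 208, 172 and 235 FPKM on WB to 26.4, 21.6 and 35.3 on WB_RS (edgeR log2 fold change -2.87 ± 0.25 SE, adjusted p = 0.000335).

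Several abundant genes sat in runs, which were chosen after their values were seen. POX06599 was followed by POX06600, at 118, 70.8 and 57.8 FPKM on WB and 1029, 606 and 838 on WB_RS (edgeR log2 fold change 3.38 ± 0.40 SE, adjusted p = 0.00104). After that came POX06601, at 22.1, 9.22 and 5.52 against 408, 304 and 413 FPKM, the steepest of this run (edgeR log2 fold change 5.00 ± 0.54 SE, adjusted p = 0.000654). All 3 calls held whichever single library was left out. The panel gene POX06147 closed a run that began with POX06145, at 67.6, 14.9 and 20.7 against 210, 250 and 228 FPKM (edgeR log2 fold change 2.83 ± 0.43 SE, adjusted p = 0.00319). Its middle gene POX06146 stood at 24.7, 6.52 and 6.04 against 91.7, 122 and 111 FPKM (edgeR log2 fold change 3.19 ± 0.45 SE, adjusted p = 0.00248). The abundant POX08484 and POX08485 formed a run with POX08483, of which 1 to 3 calls held in the refits without single libraries.

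Among lower runs, POX07482 to POX07485 stood out for size, with a mean log2 fold change of -4.002, and all 4 calls held whichever single library was left out. POX07482 had 209, 177 and 258 FPKM on WB and 12.96, 7.02 and 10.5 on WB_RS (edgeR log2 fold change -4.38 ± 0.32 SE, adjusted p = 0.000172). POX07483 had 104, 73.8 and 180 against 6.21, 2.57 and 7.59 FPKM (edgeR log2 fold change -4.43 ± 0.47 SE, adjusted p = 0.00057). POX07484 had 135, 140 and 225 against 12.1, 7.32 and 10.4 FPKM (edgeR log2 fold change -4.07 ± 0.35 SE, adjusted p = 0.000335). In each of these genes WB replicate 1 lay between or near the other WB libraries. The run closed with POX07485, at 218, 207 and 338 against 39.0, 22.2 and 26.1 FPKM (edgeR log2 fold change -3.12 ± 0.34 SE, adjusted p = 0.000648). The WB_AV libraries were nearer to those of WB than to those of WB_RS, with a median over the 4 genes of 112, 124 and 162 FPKM, against 172, 158 and 241 on WB and 12.5, 7.17 and 10.5 on WB_RS.

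The other lower runs named by the rule were POX00395 to POX00398, POX03378 to POX03381, POX04922 to POX04925 and POX04360 to POX04363, with mean log2 fold changes of -2.06, -2.001, -1.61 and -1.01. Within POX00395 to POX00398 the first gene was far steeper than the rest, with POX00395 at 373, 881 and 1151 FPKM on WB and 67.0, 15.0 and 27.5 on WB_RS (edgeR log2 fold change -4.48 ± 0.98 SE, adjusted p = 0.0144). The call of POX00395 was lost without WB_RS replicate 2 or WB_RS replicate 3 (edgeR adjusted p = 0.0596 and 0.0656), and 1 of the 4 calls of its run held in those refits. POX03381 went from 135, 272 and 213 to 27.0, 27.5 and 30.8 FPKM (edgeR log2 fold change -2.88 ± 0.45 SE, adjusted p = 0.00382). POX04923 went from 173, 137 and 184 to 34.0, 23.6 and 33.7 FPKM (edgeR log2 fold change -2.42 ± 0.21 SE, adjusted p = 0.000335). The run around POX04923 lay between genes that rose, chosen after their values were seen. POX04920 rose from 40.3, 9.50 and 9.56 to 479, 248 and 302 FPKM (edgeR log2 fold change 4.20 ± 0.60 SE, adjusted p = 0.00249), and POX04927 from 51.5, 11.6 and 14.6 to 275, 273 and 216 FPKM (edgeR log2 fold change 3.37 ± 0.57 SE, adjusted p = 0.00516). Of POX04360 to POX04363 no call held without WB_RS replicate 2, and 1 to 3 held without another library other than WB replicate 1.

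Abundant WB genes also began lower runs, again chosen after their values were seen. POX02623 was followed by POX02624, at 486, 785 and 672 against 193, 237 and 124 FPKM (edgeR log2 fold change -1.83 ± 0.37 SE, adjusted p = 0.0109), and by POX02625, at 66.7, 55.6 and 54.9 against 30.1, 36.8 and 37.1 FPKM (edgeR log2 fold change -0.75 ± 0.16 SE, adjusted p = 0.012). Within this run the decline thus became smaller from number to number. Shortly before the run, POX02621 fell too, from 41.1, 12.4 and 14.2 to 3.47, 2.32 and 3.53 FPKM (edgeR log2 fold change -2.75 ± 0.48 SE, adjusted p = 0.00577). POX02622, between POX02621 and POX02623, was not tested. The call of POX02624 was lost without WB_RS replicate 3 (edgeR adjusted p = 0.0521) and that of POX02625 without WB_RS replicate 1 (edgeR adjusted p = 0.0674). POX06753 was followed by POX06754, at 613, 1280 and 1135 against 266, 246 and 242 FPKM (edgeR log2 fold change -2.01 ± 0.50 SE, adjusted p = 0.0246), and by POX06755, at 32.8, 29.3 and 29.1 against 19.4, 19.0 and 15.4 FPKM. None of the 3 calls of this run held when a library other than WB replicate 1 was left out.

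The longest row of neighbours with a fold of at least 2, whatever the test gave, was POX01168 to POX01185, 18 consecutive numbers chosen after their values were seen, where 9.27% of all tested genes were higher by that fold. Their median FPKM was 584, 11.01 and 6.79 on WB, 419, 959 and 826 on WB_RS and 1148, 600 and 912 on WB_AV. In all 18 genes WB replicate 1 was more than 5 times as high as both other WB libraries, and in 6 it was above the lowest WB_RS library. Only POX01177 passed the test, at 139, 7.23 and 5.53 FPKM on WB and 287, 663 and 717 on WB_RS (edgeR log2 fold change 3.64 ± 1.05 SE, adjusted p = 0.0414). POX01176, the next number below, was at 1623, 27.4 and 18.6 FPKM on WB and 1343, 2899 and 3267 on WB_RS, so its groups overlapped. Without WB replicate 1 all 18 passed, where 18.7% of all tested genes were called higher, and the median log2 fold change went from 2.58 to 6.54. The row was picked on its folds in mostly the same libraries, which favours such calls, so the count is a description. The 18 genes took 1.02%, 0.0256% and 0.0181% of the FPKM sum on WB and 1.11%, 2.20% and 2.34% on WB_RS. The panel gene POX01166 has a number just before this stretch, and in it WB replicate 1 was likewise the highest WB library. POX01167, between them, stood at 107, 28.9 and 30.6 FPKM on WB and 75.5, 91.3 and 94.1 on WB_RS and did not pass the test (edgeR adjusted p = 0.205).

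**Figure D5:**
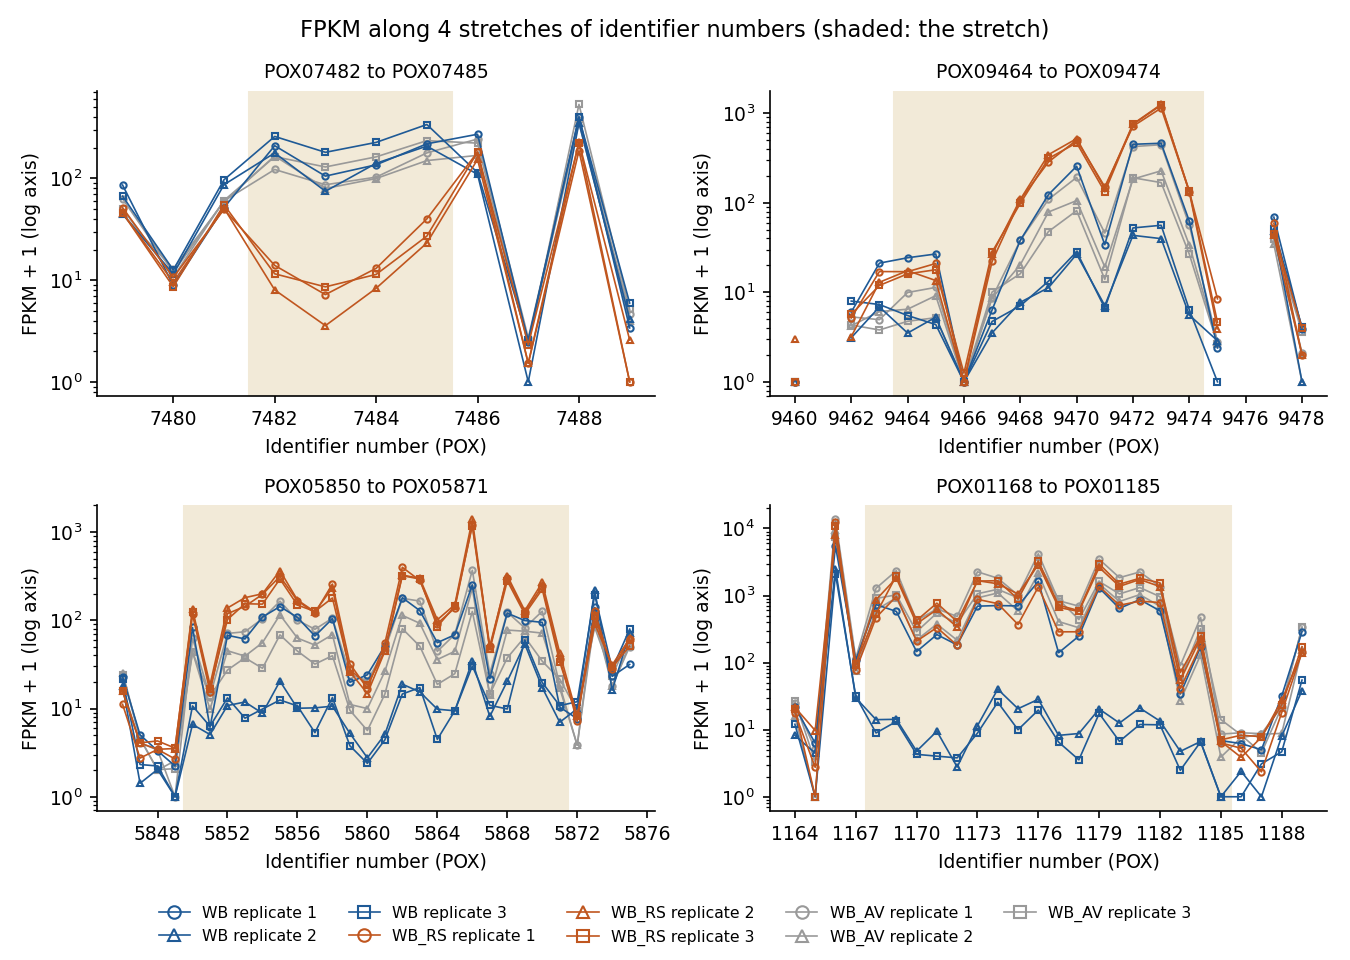
FPKM + 1 (log axis) along the identifier numbers of 4 stretches, shaded, and the numbers around them, with 1 line per library of WB (blue), WB_RS (orange) and WB_AV (grey). In POX07482 to POX07485 all WB_RS libraries lie below all others, whereas in POX01168 to POX01185 WB replicates 2 and 3 lie far below the other 7 libraries.

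POX03016, the identifier in the title of one of the other strains of the series, had 188, 499 and 195 FPKM on WB and 75.5, 241 and 98.3 on WB_RS. The groups overlapped, and it did not pass the test (edgeR log2 fold change -1.14 ± 0.65 SE, adjusted p = 0.256). In both substrates replicate 2 was the highest library, as it was in WB_AV, at 109, 445 and 214 FPKM.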

How the data were processed

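Each deposited file covers 1 library and gives, per the file headers, the expected count and the FPKM of every gene listed. Expected counts are the authors' estimated reads per gene. FPKM values are the authors' levels per length and depth. The submitters' processing notes name RSEM 1.2.12, DESeq2, Bowtie2 2.1.0 and BWA 0.7.10-r789. Their roles, the genome build and the strand setting are not stated in the sources used here. Reads shared by similar or overlapping genes may have been split between them.

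Groups and replicate numbers came from the titles, and a gene missing from a file was set to 0. Expected counts were rounded and tested with edgeR 4.0.16 (R 4.3.3) in a quasi-likelihood fit over the 9 EU2101 libraries, with TMM scaling, filterByExpr at a minimum count of 10, group as the only term and Benjamini-Hochberg adjustment over all genes tested, at 0.05. The fit was tested on simulated data. A log2 fold change is WB_RS minus WB, and its SE is its size divided by the root of the F statistic. Alternatives used DESeq2 1.42.0, limma 3.58.1 on log2(FPKM + 1) and log2(FPKM + 5), median-ratio size factors, no filter, 6 libraries, a replicate block and each library left out. Shares use the FPKM sum. Permutation tests used scipy 1.17.1.

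Named were the 10 genes highest in mean FPKM on each substrate, the 5 largest gains and losses in share, the 2 highest of the genes listed on 1 substrate only, the panel, the members of up to 5 longest runs per direction, and POX03016. Members and lists were chosen with earlier results of these data known. Lists by product name could not be formed, since 0 identifiers matched the reference table of 9964 genes. Depth limits the rare genes most, and the floor of 3 reads covers counting error only.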

Additional observations from a re-analysis of the deposited data

How the results depend on the processing

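The number of genes called, 1315, was between 1070 and 1796 with DESeq2, limma, median-ratio size factors, no low-count filter or only the 6 libraries. A replicate block gave 2291, and leaving out 1 library gave 548 to 2962, the highest without WB replicate 1. Deviations of same-numbered libraries correlated by 0.083, 0.290 and 0.162, and each library correlated best with its own number. The numbers were not taken as pairs in the main fit, since the first of these values was low. Whether they mark pairs was not tested. Higher runs numbered 24, with the block 44, and 7 to 75 with 1 library left out. Lower runs numbered 16, with the block 38, with a fold of at least 2 as a further condition 6, and 4 to 67 with 1 library left out. The share moved stayed between 25.4% and 35.0% in all alternatives. The difference in weight of the top was 3.47 points for the 50 and 3.11 for the 100 most abundant genes, and 0.792 to 2.22 for the 10 with 1 library left out. Genes on both lists were 1 when ranked by expected counts, and 22 and 60 for lists of 50 and 100. Genes listed on WB_RS alone were 33, of which 1 had a mean of at least 5 CPM, and 47 to 95 with 1 library left out. Those on WB alone were 2, of which 0 reached that mean, and 4 to 11. The cause was not tested. Of 73 named genes called, 25 to 32 lost the call when a library other than WB replicate 1 was left out and 1 without WB replicate 1. Uncalled named genes that passed elsewhere, beside refits without WB replicate 1, were POX01764 with DESeq2 and limma (adjusted p from 0.0042 to 0.037), POX00089 and POX02740 with DESeq2 (0.00754 and 0.0333), and, with the replicate block in edgeR, POX03016 (log2 fold change -1.10, adjusted p = 0.00408), POX01764 (0.00426) and POX03430 (0.0375). No named gene turned its direction while called.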
